A study of Mus musculus with 41 samples.

Results

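The imprinted genes described here are 36 named genes, all present among the 24410 gene symbols of the count table. In at least some tissues they are expressed mainly or only from the copy inherited from 1 parent. They were chosen by name, with no measured value in the rule, but at a time when earlier results of these data were known, so the shares called below describe these genes and do not come from a list picked blind. Cdkn1c was left out. By the literature 24 are classed as expressed from the paternal allele, 10 from the maternal allele, and 2 (Grb10 and Gnas) from either one depending on tissue or transcript. These classes need not hold in every tissue or for every transcript of a gene, and were not measured in these cells. RNA was sequenced from mouse R1-iCas9 embryonic stem cells, in which doxycycline switches on Cas9, during their differentiation towards ventral spinal cord neural progenitors with bFGF, the Wnt pathway agonist CHIR99021, retinoic acid and the Smoothened agonist SAG. Every group carried the Cas9 transgene and received doxycycline and a transfected guide complex. Each knockout was made with a pool of 5 guides to a single gene, Eed, Ezh2, Brd8 or Nr6a1, and the control with a non-targeting guide (NT), and cells were collected at days 7, 9 and 11. This gave 41 libraries in 15 groups of 1 genotype and 1 day, with 3 libraries a group. The exceptions, with 2, were all 3 Nr6a1 groups and the day 9 group of Brd8. A pool of guides edits a population and not a clone, so each knockout group can hold unedited cells. RNA counts also do not tell the parental alleles apart, so a level here is the sum of both.

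Most imprinted genes lie in clusters, and a cluster is governed by a control region whose DNA is methylated on only 1 parental copy. That mark is set in the germ line and kept through later divisions by DNMT1 with UHRF1 and by the zinc finger proteins ZFP57 and ZFP445, which recruit TRIM28 and SETDB1. Many paternally expressed genes promote fetal growth, several maternally expressed genes restrain it, and a number of both kinds are abundant in the developing nervous system. The products of Eed and Ezh2 are core parts of PRC2, the complex that methylates lysine 27 of histone H3. A small class of imprints, that of Slc38a4 among them, is set by this histone mark in place of DNA methylation. BRD8 belongs to the NuA4/TIP60 histone acetyltransferase, and NR6A1 (also GCNF) is a nuclear receptor with no known ligand.

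Promoter sequences of RefSeq on GRCm38.p6 were found for 31 of the 36 genes, and 4 stretches are shown to place genes described below, namely a pair that shares a start region and 3 genes with the ZFP57 hexamer. The first is the 146 bases between the starts of Peg3 and Usp29, which point away from each other, read on the strand of Peg3 (chr7:6730432-6730577, minus strand). Capitals mark 2 CCAAT boxes, a motif searched on both strands. A CCAAT box on either strand lay in the last 146 bases before the start of 24% of all 32851 RefSeq promoters, and 2 or more in 5.7%.
Peg3-Usp29: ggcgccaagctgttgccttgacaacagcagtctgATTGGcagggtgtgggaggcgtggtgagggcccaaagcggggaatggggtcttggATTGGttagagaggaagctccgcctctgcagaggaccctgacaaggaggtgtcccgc
The other 3 stretches lie before the starts of Meg3 (maternal allele; chr12:109540746-109540995, plus strand), Nap1l5 (paternal; chr6:58907127-58907261, minus strand) and Mest (paternal; chr6:30737800-30738049, plus strand). Capitals mark TGCCGC on either strand, the hexamer that ZFP57 binds when it is methylated.
Meg3: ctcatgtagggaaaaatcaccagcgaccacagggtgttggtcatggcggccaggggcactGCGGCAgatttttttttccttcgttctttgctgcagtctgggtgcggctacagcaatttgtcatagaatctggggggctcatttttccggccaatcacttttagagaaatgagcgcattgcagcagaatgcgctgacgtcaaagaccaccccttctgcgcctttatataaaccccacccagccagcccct
Nap1l5: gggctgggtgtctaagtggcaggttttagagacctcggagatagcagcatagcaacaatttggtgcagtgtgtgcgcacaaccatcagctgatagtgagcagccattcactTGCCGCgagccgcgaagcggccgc
Mest: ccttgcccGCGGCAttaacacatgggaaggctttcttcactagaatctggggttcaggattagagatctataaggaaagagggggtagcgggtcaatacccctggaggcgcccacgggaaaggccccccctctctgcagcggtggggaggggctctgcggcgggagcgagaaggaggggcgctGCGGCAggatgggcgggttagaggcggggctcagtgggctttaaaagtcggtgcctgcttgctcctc
Over the 250 bases before the start, this hexamer was in 7 of 50 promoters of the imprinted genes, from 6 genes (14%), and in 8.68% of all RefSeq promoters. The Mest window shown and another that starts at 30737803 overlap almost wholly, hold the same 2 hexamers and were counted separately. Zim1, Plagl1 and Zdbf2 also have the hexamer and are not shown. Of the Nap1l5 window only the 135 bases outside annotated exons are shown. A match to a hexamer is a description and not a bound site, and no result below rests on these letters.

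Total estimated counts per library ran from 8581282 to 38240227. A gene with no count in a library could by this depth still have had up to 0.0748 to 0.37 CPM (counts scaled to the effective library size) by counting error alone. The day 11 libraries NT replicate 3 and Eed replicate 3 agreed less with their own groups than all other libraries, with a highest correlation of log2 CPM of 0.9395 and 0.9453, and results that change without them are given both ways. In the cells labelled neural progenitors all 8 neural progenitor markers were detected in every group, and their summed level in NT was 1383 to 1419 CPM at day 7 and 1164 to 1261 CPM at day 11. Transcripts of the targeted genes do not test the edits: of 12 target values against NT only 1 passed, that of Ezh2, which was higher in Ezh2 cells at day 11 (log2 fold change 0.37 ± 0.0919, adjusted p = 0.00736). Tests were edgeR's quasi-likelihood test with adjustment by Benjamini and Hochberg over all 15204 genes tested, and values after ± are SE for log2 fold changes and SD over libraries for CPM. Where leaving out a library or another setting ended a call (adjusted p under 0.05), it is named as lost, and the log2 fold change then follows after "at". Whether replicates were separate cultures is not stated, so the p-values measure the spread between these libraries. In bulk RNA fewer cells of a type and less RNA per cell cannot be told apart.

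The imprinted genes were abundant in these cells. The 35 that were tested had mean levels over the 41 libraries with a median of 97.3 CPM, against 20 CPM for all tested genes. All 36 together made up 0.916 ± 0.00726% of the NT counts at day 7, which became 1.24 ± 0.0245% by day 11 (n = 3 each). These counts included the ribosomal RNA Rn45s, which was 14.1 to 14.7% of NT counts at day 7 and 5.18 to 6.79% at day 11. A lower Rn45s share raises that of other genes, and this part of the rise was not removed. Per kilobase of annotated exon, the highest in NT at day 11 was Nnat (chr2:157560078-157562522), which encodes neuronatin, a small protein of the endoplasmic reticulum membrane, at 1209 CPM per kb. Peg10 (207 CPM per kb), a retrotransposon-derived gene needed in placenta, Igf2 (194 CPM per kb), the fetal growth factor, and Mest (169 CPM per kb), a hydrolase-like protein, came next. Snrpn, the splicing protein SmN, had 107 CPM per kb and the long non-coding RNA Meg3 103. The lowest were Phlda2 (0.0461 CPM per kb), a brake on placental growth, Airn (0.346), the non-coding RNA that silences the paternal Igf2r, and Dio3 (0.673), which inactivates thyroid hormone. Phlda2 had 81 counts in all libraries together, a highest level of 0.834 CPM, and was not tested. Libraries were directional, but whether the counting used strand is not given in the sources used here. Of the 36 genes 19 overlap a gene on the opposite strand, and their levels are uncertain to that extent. In 11 of these, exons overlap: H19, Igf2 (with Igf2os), Meg3, Usp29 (with Zim3), Mest (with Copg2), Plagl1, Snrpn, Nnat, Gnas (with Nespas), Kcnq1ot1 (with Kcnq1) and Zdbf2. Airn with Igf2r, Nnat with Blcap and Nap1l5 with Herc3 overlap in an intron. Snrpn and Igf2 also share exons with Snurf and a predicted gene on their own strand.

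How the imprinted genes behave during undisturbed differentiation was followed in NT cells, day 11 against day 7. Of the 35 tested, 19 rose, 9 fell and 7 did not pass, so 80% were called, where the same test called 45.2% of all genes. Among genes of at least 10 CPM on average, 57.5% were called, and 27 of the 29 imprinted genes at that level. The median log2 fold change was 0.79 over the imprinted genes and 0.00 over all genes tested. Of the 9 maternally expressed genes tested 7 rose and 0 fell (8 of 9 had an unadjusted p under 0.05). Meg3, Rian and Mirg are among these 7 and lie on the same strand of 1 cluster, so they need not vary independently. Of the 24 paternally expressed genes 11 rose and 8 fell.

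In the Dlk1-Dio3 cluster on chromosome 12, 4 of 5 genes rose and none fell. The paternal gene Dlk1, a membrane protein related to Notch ligands, had 9.08, 9.47 and 16.8 CPM in the 3 NT libraries at day 7 and 42.4, 63.6 and 70.3 CPM at day 11, a log2 fold change of 2.34 ± 0.233 (adjusted p = 8.54e-11). The maternal Meg3 went from 583, 662 and 649.7 to 1972, 1862 and 1778 CPM (1.57 ± 0.132, adjusted p = 1.34e-12). Between them at day 9 stood 34.9, 35.3 and 39.2 CPM for Dlk1 and 1278, 1066 and 1399.8 CPM for Meg3, so both genes, which are read from opposite parental copies, were higher at each later day with no overlap between days 7 and 9. Rian, a maternal host of small nucleolar RNAs, had 247, 239 and 256 CPM at day 7 and 642, 594 and 575 at day 11 (1.29 ± 0.0975, adjusted p = 7.33e-14), and the microRNA host Mirg 9.61, 8.64 and 11.5 and 21.9, 19.2 and 23.1 CPM (1.11 ± 0.24, adjusted p = 0.000197). Rian had most of its rise by day 9, with 497 to 644 CPM there. Dio3, near the limit of detection, had 0.208 to 0.513 CPM at day 7 and 1.11 to 1.78 at day 11 and did not pass (1.79, adjusted p = 0.138).

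All 3 genes of the Peg3 cluster on chromosome 7 rose. Usp29, of the ubiquitin-specific protease family, had 10.2, 11.1 and 11.8 CPM at day 7 and 66.4, 67.4 and 60.2 CPM at day 11 (2.55 ± 0.214, adjusted p = 1.11e-12), the largest log2 fold change of the 28 that passed. Its head-to-head neighbour Peg3, a zinc finger protein, went from 332, 323 and 296 to 746, 736 and 715 CPM (1.21 ± 0.0921, adjusted p = 8.81e-14). The 2 genes that flank the 146 bases printed above thus rose together by different amounts. The maternal Zim1, another zinc finger gene, had 4.54, 3.33 and 4.82 and 8.05, 12.3 and 7.55 CPM (1.13 ± 0.377, adjusted p = 0.0132), a call that was lost without NT day 7 replicate 2 or NT day 11 replicate 2 at 0.88 to 0.99.

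H19 and Igf2, the reciprocal pair of distal chromosome 7, also rose together. Igf2 had 448, 537 and 432 CPM at day 7, 621, 981 and 625 at day 9 and 1025, 1339 and 973 at day 11 (1.24 ± 0.181, adjusted p = 3.9e-07). The maternal non-coding RNA H19 had 20.5, 21.4 and 24.5 CPM at day 7 and 40.9, 41 and 68.8 at day 11 (1.18 ± 0.349, adjusted p = 0.00534). NT replicate 3 at day 11 held the highest H19 value, and H19 was no longer called without NT day 11 replicate 3 or without the low-agreement libraries at 0.88. Summed markers of mesoderm, connective tissue and muscle, tissues that also express this pair, were 89.7 to 139 CPM at day 7 and 365 to 509 CPM at day 11 (4 of 11 markers rose and 1 fell), and their part in these levels was not tested. Igf2r, the maternal receptor that clears IGF2 from the cell surface, did not pass, at -0.19 (adjusted p = 0.124).

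In the region of Snrpn and Ndn, which matches the human Prader-Willi region, 4 of 5 genes rose and Peg12 fell. All 5 are classed as paternally expressed. Ndn (necdin, log2 fold change 0.97), Magel2 (0.79), both of the MAGE family, the ubiquitin ligase Mkrn3 (0.92) and Snrpn (0.84) rose, with adjusted p from 2.03e-08 to 0.000277. Peg12, an intronless gene of the GSK3-binding Frat family, had 83.1, 82.2 and 85.8 CPM at day 7, 70.9, 77.3 and 68.8 at day 9 and 38.3, 43.9 and 27.8 at day 11 (-1.19 ± 0.146, adjusted p = 1.07e-08). Genes of 1 imprinted region, all classed as read from the same parental copy, therefore went in both directions.

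Nnat and Blcap lie within each other on chromosome 2, the paternal Nnat inside an intron of the maternal Blcap, a small membrane protein gene. Nnat had 859.8, 802 and 932 CPM at day 7, 1552, 1571 and 1652 at day 9 and 2295, 2188 and 2150.3 at day 11 (1.35 ± 0.12, adjusted p = 4.67e-12). Blcap rose from 57.5 ± 5.2 to 112 ± 9.5 CPM (0.96 ± 0.123, adjusted p = 2.71e-08). Nap1l5, an intronless gene related to nucleosome assembly proteins that lies in an intron of Herc3, went from 27.3, 23.7 and 37 to 161, 142 and 156 CPM (2.39 ± 0.173, adjusted p = 2.23e-14). Inpp5f, an inositol phosphatase gene, had 85, 89.2 and 82.8 and 187, 185 and 171 CPM (1.08 ± 0.129, adjusted p = 5.43e-09). All 4 were higher in every day 11 library than in any day 7 library.

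The genes that fell were paternal genes and Grb10. Ddc, which encodes the decarboxylase that makes dopamine and serotonin, had 25.8, 24.4 and 27.3 CPM at day 7, 37.1, 29.7 and 39 at day 9 and 7.2, 7.05 and 5.33 at day 11, a log2 fold change between days 7 and 11 of -1.98 ± 0.216 (adjusted p = 7.88e-10). Its decline thus lay between days 9 and 11. Grb10, an adaptor that dampens insulin and IGF receptor signals and is Ddc's neighbour, fell by 0.94 on the log2 scale (adjusted p = 0.000144). Peg10 had 2946, 2887 and 2665 CPM at day 7 and 1343, 1344 and 1453 at day 11 (-1.04 ± 0.0775, adjusted p = 5.1e-14), while Sgce, a sarcoglycan gene that shares its bidirectional promoter, had a log2 fold change of 0.05 and did not pass (adjusted p = 0.789). Plagl1, a zinc finger transcription factor, had 388, 478 and 416 CPM at day 7 and 214, 239.8 and 202 at day 11 (-0.96 ± 0.17, adjusted p = 1.06e-05). Mest (-0.98), the non-coding RNA Kcnq1ot1 (-0.96) and the zinc finger gene Zdbf2 (-0.43) also fell, with adjusted p of 0.000112 or less. Impact, an inhibitor of the stress kinase GCN2, fell by 0.26 (adjusted p = 0.029), a call kept in 4 of 13 alternatives and lost without NT day 7 replicate 1, 2 or 3 or NT day 11 replicate 2 or 3 or with DESeq2 size factors or by DESeq2 or with no low-count filter or without the low-agreement libraries at -0.27 to -0.23. Of the remaining 3 genes of the chromosome 6 and 2 clusters, the actin-binding Ppp1r9a (0.46) and the G protein subunit gene Gnas (0.19) rose, with the Gnas call lost without NT day 11 replicate 2 at 0.14, and Asb4, an adaptor of ubiquitin ligases, did not pass (adjusted p = 0.0586) except by DESeq2 or with its size factors. Airn, Slc38a4 and the non-coding RNA Peg13 did not pass either, with adjusted p of 0.228 or more.

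**Figure D1:**
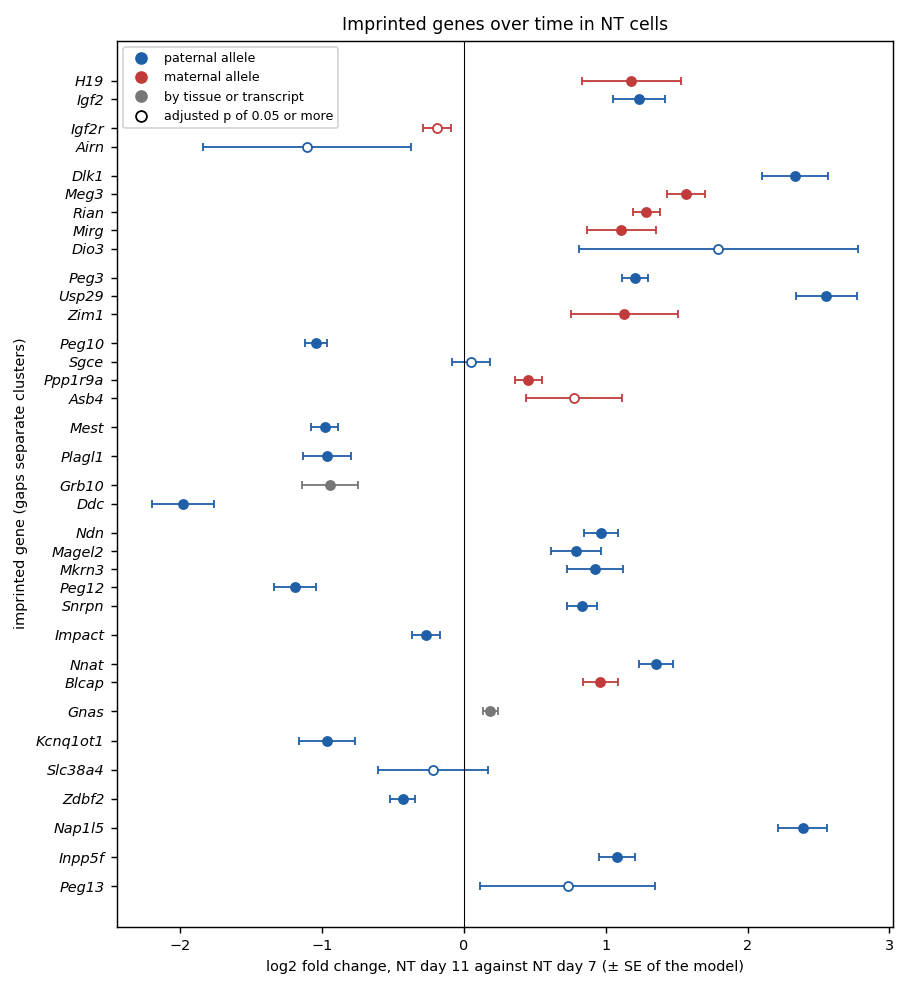
Each point is the log2 fold change (x axis, with its SE) of 1 of the 35 tested imprinted genes in NT cells, day 11 against day 7, ordered by cluster and coloured by the allele that is expressed. Usp29 (2.55), Nap1l5 (2.39) and Dlk1 (2.34) lie farthest right, Ddc (-1.98) farthest left, and all 7 filled maternal points lie right of 0.

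The summed level of 11 glial markers in NT went from 310.3 to 347 CPM at day 7 to 1799 to 1848 CPM at day 11, and 9 of the 10 tested rose. That of 8 neuron markers went from 2289 to 2388 to 3064 to 3218 CPM (3 rose and 1 fell). Their part in the changes of the imprinted genes was not tested. In a list of 26 other imprinted genes and cluster neighbours that were tested, 7 rose and 5 fell (46.2% called). In the list of imprint maintenance and DNA methylation genes, 4 rose and 7 fell of 14 tested. Uhrf1 fell by 2.33 and Dnmt1, the maintenance methyltransferase, by 1.19 on the log2 scale, while the de novo methyltransferase gene Dnmt3a rose by 1.26, each with an adjusted p of 3.91e-14 or less.

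The comparison of Eed with NT at each day asks which imprinted genes differ where PRC2 is targeted. At day 11, 7 of the 35 rose and 12 fell (54.3%, where 24% of all genes were called; 30.5% of genes of at least 10 CPM). At day 7, 2 rose and 6 fell (8.66% of all genes called), and at day 9, 0 rose and 8 fell (5.14% called). Among genes of at least 10 CPM, 12.6% were called at day 7 and 7.75% at day 9. The median log2 fold change over the imprinted genes was -0.22 at day 11, against 0.02 over all genes. By allele, 9 of 24 paternal genes fell and 6 rose, and 3 of 9 maternal genes fell and 1 rose. Without the low-agreement libraries 2 rose and 10 fell at day 11, with Igf2r and Plagl1 as the 2 that rose. At day 7, 3 were called without Eed replicate 2, 4 without Eed replicate 1 or NT replicate 1 and 5 without NT replicate 3. At day 9, 0 were called without Eed replicate 3, 1 without NT replicate 3, 2 without Eed replicate 2 and 3 without NT replicate 1. The comparisons of all 4 knockouts at a day share the same 3 NT libraries, so their values are set side by side below and not tested for likeness.

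Marker lists of progenitors and of other cells also differed between the groups. The 8 neural progenitor markers summed to 813 to 886 CPM in Eed, 789.7 to 902 in Brd8 and 951 to 1107 in Ezh2 at day 11, each below the 1164 to 1261 CPM of NT, and 3 rose and 3 fell in each. At day 7 they summed to 1154 to 1273 CPM in Eed, 1119 to 1254 in Brd8 and 1237 to 1303 in Ezh2, against 1383 to 1419 in NT. Neuron markers summed to 2289 to 2388 CPM in NT at day 7 against 1465 to 1757 in Eed, where 6 of 8 fell, 1572 to 1869 in Brd8, where 5 fell, and 1913 to 2134 in Ezh2, where none passed. In Nr6a1 at day 7 they summed to 2627 to 2823 CPM, above every NT library. At day 7, 2 imprinted genes were called in Brd8 (5.71%, with 4.75% of all genes called) and 0 in Ezh2 (0.151% of all genes called). At day 9 neuron markers summed to 3156 to 3441 CPM in NT against 2556 to 3073 in Eed and 2165 to 2575 in Brd8, where 5 of 8 fell. At day 11 they summed to 3064 to 3218 CPM in NT, 2689 to 2758 in Eed and 2835 to 3058 in Brd8, with 1 up (Isl1) and 1 down (Map2) in each. Glial markers at day 11 summed to 1799 to 1848 CPM in NT, 901 to 1069.9 in Eed (7 of 10 tested fell), 1231 to 1321 in Ezh2 (4 fell) and 1123 to 1151 in Brd8 (6 fell). Their day 9 sums were 960 to 1008 CPM in NT, 763 to 860 in Eed, 802 to 1052 in Ezh2 and 660 to 835 in Brd8. Day 7 glial sums were 310 to 347 CPM in NT and 445 to 586 in Nr6a1. Markers of surface epithelium and of trophoblast, a tissue rich in Peg10 and Igf2, summed to 207 to 362 CPM in Eed at day 11 (5 of 9 rose) and 42.7 to 64.5 in NT. The trophoblast gene Elf5 was at 0 in all 3 NT libraries of day 11. These markers mix general epithelial with trophoblast genes, so their sum does not show whether trophoblast was present in Eed. In Brd8 these markers summed to 40.9 to 65.8 CPM and 0 of 9 were called. The part of these cells in the levels of the imprinted genes was not tested.

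**Figure D2:**
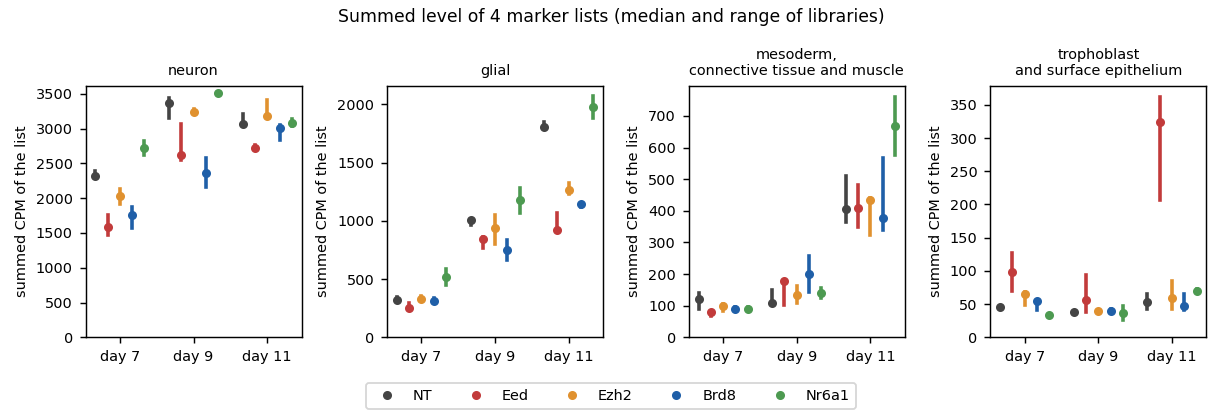
Summed CPM (y axis, from 0) of 4 marker lists by day and genotype; dots are the median and bars the range of the libraries. At day 11 the glial sum was 1799 to 1848 CPM in NT and below 1330 CPM in every Eed, Ezh2 and Brd8 library, and the trophoblast and surface epithelium sum was 207 to 362 CPM in Eed.

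Nnat was the imprinted gene called most often, in 7 of 12 comparisons of a knockout with NT, and was lower in each. At day 11 it had 2295, 2188 and 2150.3 CPM in NT, 1119, 984 and 1402 in Eed, 1597, 1647 and 1562 in Ezh2, 1122, 1379 and 1378 in Brd8 and 2341 and 2137 in Nr6a1. The libraries of Eed, Ezh2 and Brd8 all lay below those of NT, and those of Nr6a1 overlapped with it. The log2 fold changes were -0.92 ± 0.119 (adjusted p = 2.56e-07) in Eed, -0.47 ± 0.118 (adjusted p = 0.00948) in Ezh2 and -0.77 ± 0.119 (adjusted p = 7.21e-06) in Brd8, and each was kept in all 13 alternatives. At day 7 Nnat had 859.8, 802 and 932 CPM in NT, 656, 528 and 654 in Eed (-0.50 ± 0.119, adjusted p = 0.00542) and 588, 539 and 689.7 in Brd8 (-0.51 ± 0.119, adjusted p = 0.00694), and at day 9 it fell by 0.53 in Eed and 0.87 in Brd8 (adjusted p = 0.00673 and 2.32e-05). The day 7 call in Eed was lost without Eed replicate 2 at -0.40, that in Brd8 without Brd8 replicate 1 or 2 or NT replicate 3 at -0.49 to -0.44, and the day 9 call in Eed without Eed replicate 3 or NT replicate 3 at -0.50 to -0.43. Its host gene Blcap fell at day 11 in Eed (log2 fold change -0.50) and in Brd8 (-0.48, lost without Brd8 replicate 1 at -0.36), and at day 9 in Brd8 (-0.39, lost without Brd8 replicate 1 or 2 or NT replicate 1 or 3 or with the replicate block at -0.42 to -0.34).

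The head-to-head genes Peg3 and Usp29 were lower in Eed and Brd8 at days 9 and 11. At day 11 Peg3 had 746, 736 and 715 CPM in NT, 479, 402 and 488 in Eed (-0.68 ± 0.091, adjusted p = 4.55e-07), 488, 472 and 549 in Ezh2 (-0.54 ± 0.0907, adjusted p = 9.42e-05) and 512, 429 and 463 in Brd8 (-0.65 ± 0.091, adjusted p = 1.76e-06). No library of these 3 knockouts reached the lowest NT library, and the 3 calls were kept in every alternative. At day 7, in contrast, Peg3 had 332, 323 and 296 CPM in NT and 318, 373 and 313 in Eed, 316, 299 and 354 in Ezh2 and 325, 295 and 326 in Brd8, with adjusted p of 0.695 or more. The difference between the days was tested: the effect at day 11 was lower than that at day 7 by 0.76 ± 0.129 on the log2 scale in Eed (adjusted p = 0.000155), by 0.57 in Ezh2 (adjusted p = 0.016) and by 0.64 in Brd8 (adjusted p = 0.00193). In Ezh2 the call was lost without Ezh2 day 7 replicate 3 or NT day 7 replicate 3 or Ezh2 day 11 replicate 2 at -0.53 to -0.50. At day 9 Peg3 fell by 0.32 in Eed (adjusted p = 0.0319, lost without Eed replicate 2 or 3 or NT replicate 1, 2 or 3 or with only the groups compared at -0.33 to -0.23) and by 0.57 in Brd8 (adjusted p = 0.000161).

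Usp29 had 66.4, 67.4 and 60.2 CPM in NT at day 11, 40.7, 30.7 and 26 in Eed (-0.98 ± 0.197, adjusted p = 0.000233) and 39.3, 44.4 and 39.1 in Brd8 (-0.66 ± 0.196, adjusted p = 0.0149). In Ezh2 it had 53, 49.5 and 50.3 CPM, below every NT library, but did not pass (-0.35, adjusted p = 0.32). At day 9 it fell by 0.82 in Eed (adjusted p = 0.013) and by 0.94 in Brd8 (adjusted p = 0.00385). The day 11 call in Brd8 was lost without Brd8 replicate 1 or 3 at -0.63, the day 9 call in Eed without Eed replicate 2 or 3 or NT replicate 1 or 3 at -0.79 to -0.65, and the day 9 call in Brd8 without Brd8 replicate 2 at -0.48. Zim1, the maternal gene of the cluster, was not called in any knockout. Its day 11 range was 7.55 to 12.3 CPM in NT, 8.57 to 13.5 in Eed and 8.18 to 14.7 in Brd8.

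In the Dlk1-Dio3 cluster only Meg3 was called in Eed. At day 11 Meg3 had 1972, 1862 and 1778 CPM in NT, 1163, 1199 and 1074 in Eed (-0.71 ± 0.13, adjusted p = 7.22e-05), 1615, 1419 and 1433 in Ezh2 (-0.33, adjusted p = 0.116) and 1161, 1346 and 1275 in Brd8 (-0.57 ± 0.13, adjusted p = 0.0014). The calls in Eed and Brd8 held in all 13 alternatives, while the Ezh2 value did not pass although its 3 libraries lay below NT, except with only the groups compared (-0.34, adjusted p = 0.00558) or no low-count filter. At day 7 Meg3 had 583, 662 and 649.7 CPM in NT and 361, 469 and 504 in Eed (-0.51 ± 0.131, adjusted p = 0.00983, lost without Eed replicate 1 at -0.38). At day 9 it fell by 0.47 in Eed (adjusted p = 0.0259, lost without Eed replicate 2 or 3 or NT replicate 1 or 3 or with only the groups compared at -0.47 to -0.34) and by 0.65 in Brd8 (adjusted p = 0.00167, lost without Brd8 replicate 2 at -0.55). Rian, further along on the same maternal strand, was called only in Brd8 at day 9 (-0.40, adjusted p = 0.00878, lost without Brd8 replicate 2 or NT replicate 3 or with only the groups compared at -0.39 to -0.21). In Eed at day 11 it had 511, 520.5 and 503 CPM against 642, 594 and 575 in NT, with a log2 fold change of -0.24 (adjusted p = 0.0639), which was called by DESeq2, with only the groups compared and with no low-count filter. Dlk1, Mirg and Dio3 were not called in any knockout.

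Nap1l5 and Inpp5f, classed as paternal genes and standing alone, fell in Eed and in Brd8. Nap1l5 had 161, 142 and 156 CPM in NT at day 11, 82.2, 88.3 and 93.6 in Eed (-0.80 ± 0.161, adjusted p = 0.000245) and 76.8, 105 and 93.2 in Brd8 (-0.74 ± 0.161, adjusted p = 0.000884), both kept in every alternative. In Ezh2 it had 114, 122 and 122 CPM and did not pass (adjusted p = 0.175) except with only the groups compared (-0.37, adjusted p = 0.0207) or no low-count filter. At day 9 it fell by 0.62 in Eed and 0.84 in Brd8, and at day 7 by 0.59 in Eed. These 3 calls were lost, in Eed at day 9, without Eed replicate 2 or 3 or NT replicate 1 or 3 at -0.60 to -0.54. In Brd8 at day 9 that happened without Brd8 replicate 2 at -0.49, and in Eed at day 7 without Eed replicate 1 or 2 or NT replicate 1 or 3 at -0.64 to -0.40. Inpp5f had 187, 185 and 171 CPM in NT at day 11, 124, 120 and 133 in Eed (-0.53 ± 0.126, adjusted p = 0.0018) and 127, 149 and 134 in Brd8 (-0.41 ± 0.126, adjusted p = 0.0208, lost without Brd8 replicate 1 or 3 or NT replicate 1 or 2 at -0.39 to -0.36). At day 9 Inpp5f fell by 0.83 in Brd8 (adjusted p = 9.3e-05) and by 0.53 in Eed (adjusted p = 0.0106, lost without Eed replicate 2 or 3 or NT replicate 3 or with only the groups compared at -0.53 to -0.38).

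Igf2 went the other way. At day 11 it had 1025, 1339 and 973 CPM in NT, 1726, 1876 and 2029 in Eed (0.75 ± 0.178, adjusted p = 0.00154), 2506, 1491 and 1746 in Brd8 (0.78 ± 0.179, adjusted p = 0.00142), 920.3, 1249 and 894 in Ezh2 (-0.12, adjusted p = 0.764) and 941 and 961 in Nr6a1. All Eed and Brd8 libraries lay above NT, and the Ezh2 libraries overlapped it. In Eed, Igf2 lost its call without the low-agreement libraries at 0.60. At day 7 Igf2 had 673, 883 and 553 CPM in Eed against 448, 537 and 432 in NT (0.57 ± 0.179, adjusted p = 0.0371), a call lost without Eed replicate 1 or 2 or NT replicate 1 or 3 or by DESeq2 at 0.38 to 0.60. Brd8 (803, 602 and 624 CPM) and Ezh2 (648, 546 and 572 CPM) libraries of day 7 also all lay above NT, but neither passed. With only the groups compared, Igf2 was called in Brd8 (0.53, adjusted p = 0.00166) and Ezh2 (0.32, adjusted p = 0.0205), and with no low-count filter in both. At day 9 it was higher in Brd8 (0.63 ± 0.196, adjusted p = 0.0225, lost without Brd8 replicate 1 or NT replicate 1 or 3 at 0.37 to 0.52) and lower in Nr6a1, where the libraries had 309 and 435 CPM against 621, 981 and 625 in NT (-0.999 ± 0.206, adjusted p = 0.0179, lost without NT replicate 2 or 3 or Nr6a1 replicate 1 at -1.11 to -0.75). H19, its maternal counterpart, was not called in any knockout: at day 11 it had 40.9, 41 and 68.8 CPM in NT, 70, 72.6 and 49.8 in Eed and 85, 62.2 and 51.2 in Brd8. Igf2r rose in Eed at day 11 (0.39 ± 0.0997, adjusted p = 0.00353), in every alternative, and in Brd8 at day 9 (0.41 ± 0.11, adjusted p = 0.00848, lost without Brd8 replicate 1 at 0.31). Summed mesoderm, connective tissue and muscle markers were 349 to 480.2 CPM in Eed and 340.4 to 568 in Brd8 at day 11, against 365 to 509 in NT, and 3 of 11 rose in each. The 3 were the muscle genes Actc1, Des and Myog in both, with Actc1 at a mean of 0.216 CPM in NT, 30.5 in Eed and 45.1 in Brd8. At day 9 they were 144 to 257 CPM in Brd8 and 104 to 151 in NT. Their part in the Igf2 level was not tested.

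Plagl1 had the largest rise of any imprinted gene at day 11. It had 214, 239.8 and 202 CPM in NT, 369, 432 and 802 in Eed (1.29 ± 0.171, adjusted p = 4.39e-07), 556, 352 and 486 in Brd8 (1.09 ± 0.17, adjusted p = 1.01e-05) and 324, 329.9 and 315 in Ezh2 (0.56 ± 0.169, adjusted p = 0.0306). Every library of these 3 knockouts was above NT, and Eed replicate 3, 1 of the low-agreement libraries, was highest. Without that library the Eed value was 0.87 and still passed (adjusted p = 1.65e-05), and the Eed and Brd8 calls were kept in all 13 alternatives. The Ezh2 call was lost without Ezh2 replicate 1, 2 or 3 or NT replicate 1 or 3 or by DESeq2 at 0.51 to 0.58. The effect at day 11 exceeded that at day 7 by 0.89 ± 0.238 in Eed (adjusted p = 0.0162, lost without NT day 7 replicate 2 or Eed day 11 replicate 3 or with only the groups compared or without the low-agreement libraries at 0.43 to 0.88) and by 0.87 ± 0.238 in Brd8 (adjusted p = 0.0261, lost without Brd8 day 7 replicate 3 or NT day 7 replicate 2 or Brd8 day 11 replicate 1 or 3 or NT day 11 replicate 3 at 0.72 to 0.84). In Nr6a1 at day 11 Plagl1 had 216 and 196 CPM, with an adjusted p of 0.953.

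Besides Plagl1, 4 paternal genes that fell with time in NT were higher in Eed at day 11: Ddc, Mest, Peg10 and Peg12. Ddc had 7.2, 7.05 and 5.33 CPM in NT and 11.6, 9.43 and 9.41 in Eed (0.64 ± 0.22, adjusted p = 0.0294), a call lost without Eed replicate 1 or NT replicate 3 or with only the groups compared or without the low-agreement libraries at 0.52 to 0.65. At day 7 it had 25.8, 24.4 and 27.3 CPM in NT and 23.2, 12.6 and 16.5 in Eed (-0.55, adjusted p = 0.0817, called with no low-count filter), and the difference between the days, 1.20 ± 0.299 (adjusted p = 0.00972), was kept in all 19 alternatives. Mest rose by 0.34 (adjusted p = 0.00636, lost without NT replicate 3 or without the low-agreement libraries at 0.22 to 0.25), Peg10 by 0.21 (adjusted p = 0.0376, lost without Eed replicate 1 or 3 or NT replicate 1 or 2 or without the low-agreement libraries at 0.18 to 0.21) and Peg12 by 0.39 (adjusted p = 0.0463, lost without Eed replicate 1 or 2 or NT replicate 1 or 3 or with only the groups compared or without the low-agreement libraries at 0.23 to 0.43). Peg10 also rose in Brd8, by 0.32 at day 9 (adjusted p = 0.00744, lost without Brd8 replicate 2 or NT replicate 1 at 0.15 to 0.27) and 0.28 at day 11 (adjusted p = 0.00723, lost without Brd8 replicate 3 at 0.23). Its partner Sgce was not called in any knockout. The falls in NT and the differences from Eed at day 11 rest in part on the same 3 NT libraries.

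Slc38a4, an amino acid transporter gene, had 8.26, 8.85 and 7.9 CPM in NT at day 7 and 25, 31 and 13.1 in Eed, with no overlap (1.47 ± 0.384, adjusted p = 0.0111, lost without Eed replicate 2 or NT replicate 3 at 1.20 to 1.43). It was the only imprinted gene with a 2-fold call against NT at day 7. Ezh2 libraries had 15.4, 14.6 and 17.2 CPM and Brd8 libraries 17, 13.2 and 14.2 CPM at that day, all above NT, but neither passed (adjusted p = 0.342 and 0.226). With only the groups compared, both were called, Ezh2 at 0.91 (adjusted p = 0.013) and Brd8 at 0.84 (adjusted p = 0.0199). Nr6a1 had 2.78 and 3.92 CPM (adjusted p = 0.397). At day 11 Eed had 8.7, 15.5 and 16.6 CPM against 4.65, 9.09 and 7.85 in NT (0.91, adjusted p = 0.0825, called with no low-count filter). In the list of 26 other imprinted genes and neighbours, 3 were called in Eed at day 11 (11.5%, below the 24% of all genes). The signalling adaptor gene Gab1 fell (-0.70 ± 0.0882, adjusted p = 1.53e-07), the potassium channel gene Kcnk9 fell (-1.78 ± 0.546, adjusted p = 0.0145) and Jade1 rose (0.40 ± 0.146, adjusted p = 0.0427). In Brd8 at day 11 Gab1 fell as well (-0.66 ± 0.0882, adjusted p = 7.81e-07), the 1 call of that list (3.85%, with 17.8% of all genes called).

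The 4 genes of the Snrpn and Ndn region that rose with time in NT were each lower in Eed at 1 day or more. Their rises in NT and these differences from Eed rest in part on the same NT libraries. Snrpn was called in Eed at day 9 (-0.49 ± 0.104, adjusted p = 0.00422, lost without Eed replicate 3 at -0.45) and day 11 (-0.37 ± 0.104, adjusted p = 0.00722), and in Brd8 at day 9 (-0.59 ± 0.119, adjusted p = 0.000478, lost without Brd8 replicate 2 at -0.43) and day 11 (-0.47 ± 0.105, adjusted p = 0.00108). Its day 11 ranges were 223 to 244 CPM in NT, 167 to 186 in Eed and 149 to 183 in Brd8, with no overlap with NT. In Ezh2 at day 11 Snrpn had 157 to 229 CPM and did not pass. It was called there by DESeq2 (-0.34, adjusted p = 0.0208), with its size factors, with no low-count filter, with the replicate block and without Rn45s. Magel2 fell in Eed at day 7 (-0.80 ± 0.183, adjusted p = 0.00353, lost without Eed replicate 1 at -0.61) and in Brd8 at day 9 (-0.73 ± 0.195, adjusted p = 0.00805, lost without Brd8 replicate 2 at -0.38). Ndn fell in Eed by 0.42 at day 7 (lost without Eed replicate 1, 2 or 3 or NT replicate 1 at -0.43 to -0.33) and by 0.33 at day 11 (lost without Eed replicate 3 or NT replicate 2 or 3 or without the low-agreement libraries at -0.36 to -0.26). Mkrn3 fell in Eed at day 11 by 0.55 (adjusted p = 0.0365), kept in 6 of 13 alternatives and lost without Eed replicate 1 or 2 or NT replicate 1 or 3 or with no low-count filter or with only the groups compared or without the low-agreement libraries at -0.57 to -0.45.

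Ppp1r9a, the maternal neurabin gene, fell at day 11 in Eed (-0.59 ± 0.095, adjusted p = 1.17e-05) and Brd8 (-0.52 ± 0.095, adjusted p = 9.3e-05) in every alternative, with 191 to 230.4 CPM in NT, 126 to 155 in Eed and 142 to 161 in Brd8. It also fell in Brd8 at day 9 (-0.39, lost without Brd8 replicate 1 or NT replicate 1 at -0.34 to -0.32). In Ezh2 at day 11 it had 155 to 190.2 CPM and did not pass. It was called there by DESeq2 (-0.31, adjusted p = 0.0196), with its size factors, with no low-count filter, with the replicate block and without Rn45s. Its Eed effect at day 11 was lower than that at day 7 by 0.43 (adjusted p = 0.0442), a call kept in 7 of 19 alternatives. That call was lost without Eed day 7 replicate 1, 2 or 3 or NT day 7 replicate 1, 2 or 3 or Eed day 11 replicate 1 or 2 or NT day 11 replicate 1 or 3 or with only the groups compared or without the low-agreement libraries at -0.47 to -0.35. Grb10, the adaptor that fell with time in NT, was lower in Eed than in NT at day 7 (-0.88 ± 0.199, adjusted p = 0.00321, lost without NT replicate 1 at -0.64) and day 9 (-0.75 ± 0.195, adjusted p = 0.0193, lost without Eed replicate 2 or 3 or NT replicate 1 or 3 at -0.79 to -0.64). The fall of Grb10 in NT and its day 7 difference from Eed rest in part on the same NT libraries. In Brd8 Grb10 was lower at day 9 (-0.93 ± 0.225, adjusted p = 0.00331, lost without Brd8 replicate 1 at -0.76) and day 11 (-0.62 ± 0.206, adjusted p = 0.0298, lost without Brd8 replicate 2 or 3 or NT replicate 1 or with only the groups compared at -0.64 to -0.54). The GCN2 inhibitor gene Impact fell in Eed at day 11 by 0.33 (adjusted p = 0.0143, lost without Eed replicate 2 or NT replicate 1 or with only the groups compared at -0.32 to -0.27). In Brd8 at day 11 Impact did not pass, except without the low-agreement libraries (-0.33, adjusted p = 0.0472), by DESeq2 or with its size factors. Gnas rose in Brd8 at day 7 by 0.18 (adjusted p = 0.0389, lost without Brd8 replicate 1 or NT replicate 1, 2 or 3 or with no low-count filter at 0.14 to 0.19). In all, 24 of the 35 tested genes (68.6%) were called in at least 1 of the 12 knockout comparisons, where 36% of all genes were. At 10 CPM or more these shares were 79.3% and 45.5%. The other 11 were called in none: H19, Airn, Dlk1, Mirg, Dio3, Zim1, Sgce, Asb4, Kcnq1ot1, Zdbf2 and Peg13. Of these, H19, Dlk1 and Kcnq1ot1 were called in 1 or more with no low-count filter, Kcnq1ot1 in Brd8 at day 9 also with only the groups compared (-0.35, adjusted p = 0.0237).

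**Figure D3:**
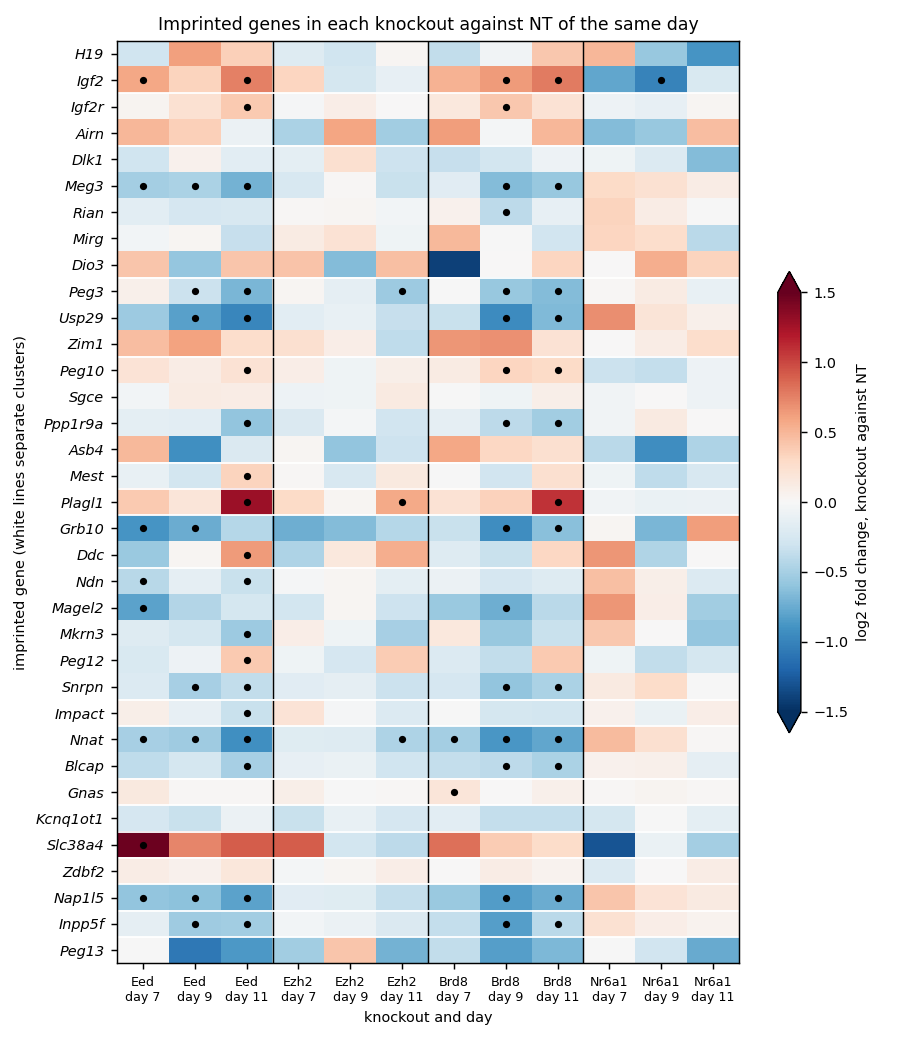
Rows are the 35 tested imprinted genes, columns the 12 comparisons of a knockout with NT of the same day, colour is the log2 fold change and a black dot marks an adjusted p under 0.05. Dots gather in the Eed and Brd8 columns (19 in Eed and 13 in Brd8 at day 11), while Ezh2 at days 7 and 9 and Nr6a1 at days 7 and 11 have none.

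The other 3 knockouts differed widely in how many imprinted genes were called. In Brd8, 1 gene rose and 1 fell at day 7 (5.71%, with 4.75% of all genes called), 3 rose and 12 fell at day 9 (42.9%, with 15.5% called) and 3 rose and 10 fell at day 11 (37.1%, with 17.8% called). Among genes of at least 10 CPM, 6.96%, 21.5% and 23.8% were called in Brd8 at days 7, 9 and 11. Without Brd8 replicate 2 the day 9 count was 7, and the day 7 count was 0 without NT replicate 3, 1 without NT replicate 1 or Brd8 replicate 1 or 2 and 5 without Brd8 replicate 3. In Ezh2, 1 gene rose and 2 fell at day 11 (8.57%, with 7.91% of all genes called), a share close to that of all genes, and 5 were called without NT replicate 2. At day 7 edgeR called 0 of 35 in Ezh2 (0.151% of all genes), with 4 at an unadjusted p under 0.05 and 0 by DESeq2. At day 9 it called 0 of 35 (0% of all genes), with 2 at an unadjusted p under 0.05 and 0 by DESeq2. In Nr6a1, edgeR called 0 at day 7 (0.145% of all genes), with 11 at an unadjusted p under 0.05 and 1 by DESeq2. At day 9 it called 1, Igf2 (0.151% of all genes), and 0 without NT replicate 2 or 3 or Nr6a1 replicate 1. At day 11 it called 0 (0.0789% of all genes), with 6 at an unadjusted p under 0.05 and 0 by DESeq2. At day 7 both Nr6a1 libraries had Nnat above NT (1356 and 1055 CPM; 0.48, adjusted p = 0.174), Usp29 likewise (19.4 and 16.4 CPM, adjusted p = 0.342) and Igf2 below it (249 and 301 CPM, adjusted p = 0.139), none of which passed. With only the groups compared, Igf2 (-0.78, adjusted p = 0.00682) and Nnat (0.47, adjusted p = 0.0412) were called, and with no low-count filter all 3 were.

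**Figure D4:**
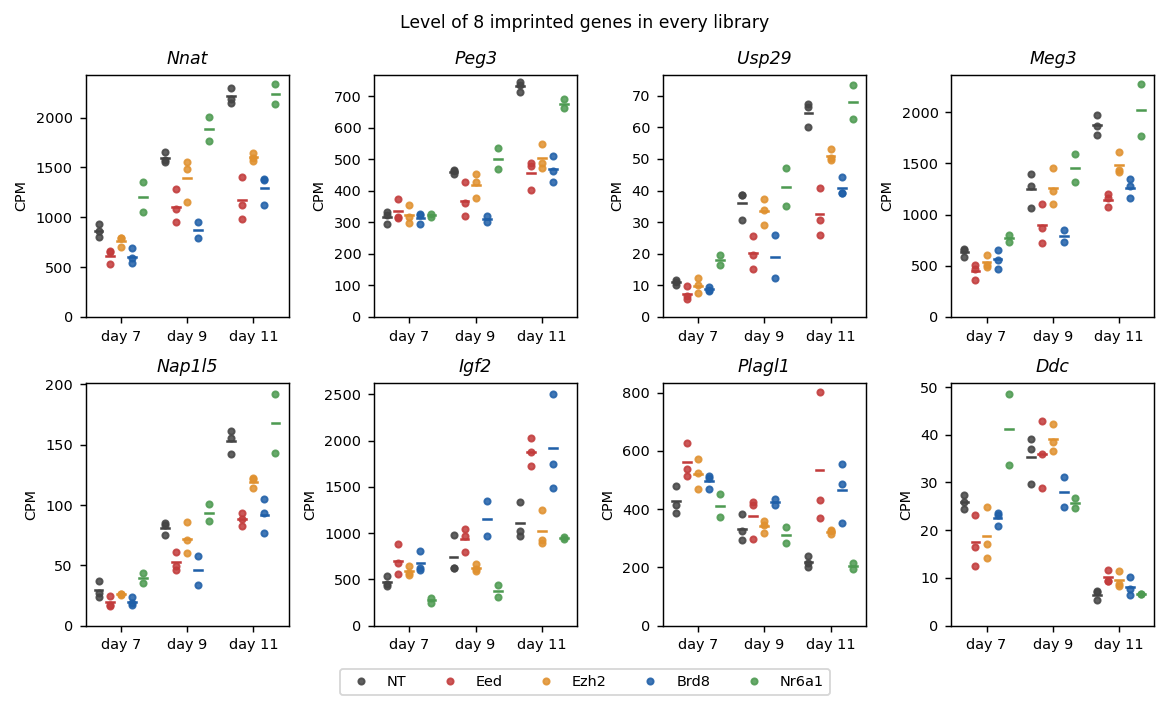
CPM (y axis, linear from 0) of 8 imprinted genes in every library, by day and genotype; points are libraries and lines are group means. In Nnat, Peg3, Usp29, Meg3 and Nap1l5 the red Eed and blue Brd8 points at day 11 lie below the grey NT points, in Igf2 and Plagl1 above them, and 1 Eed library stands apart in Plagl1 at 802 CPM.

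Eed and Ezh2 cells, targeted for different subunits of the same complex, were compared directly at day 11. Of the 35 imprinted genes 3 were higher in Eed and 1 lower (11.4%, with 2.88% of all genes and 3.79% of genes of at least 10 CPM called). Igf2 had 1726, 1876 and 2029 CPM in Eed and 920.3, 1249 and 894 in Ezh2 (0.88 ± 0.179, adjusted p = 0.00418), and Igf2r differed by 0.38 ± 0.0988 (adjusted p = 0.0267). Plagl1 differed by 0.72 ± 0.168 (adjusted p = 0.0131) and Nnat by -0.46 ± 0.118 (adjusted p = 0.0285). The count was 0 without Ezh2 replicate 3, 1 without Ezh2 replicate 1 and 2 without Eed replicate 2. The Igf2 call was lost only without Ezh2 replicate 3, at 0.79 (adjusted p = 0.0564). Igf2r lost its call without Eed replicate 1 or 2 or Ezh2 replicate 1 or 3 or with only the groups compared at 0.31 to 0.40, Plagl1 without Eed replicate 3 or Ezh2 replicate 1 or 3 or with only the groups compared or without the low-agreement libraries at 0.31 to 0.74, and Nnat without Eed replicate 1 or 2 or Ezh2 replicate 1, 2 or 3 at -0.47 to -0.35.

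The change of a knockout's effect between days 7 and 11 was tested for all genes. In Eed 3 imprinted genes had a higher effect at day 11 (Plagl1, Ddc and Mest) and 2 a lower one (Peg3 and Ppp1r9a). This was 14.3%, with 6.32% of all genes and 8.59% of genes of at least 10 CPM called. For Mest the difference was 0.44 ± 0.131 (adjusted p = 0.033), lost without Eed day 7 replicate 2 or 3 or NT day 7 replicate 1, 2 or 3 or Eed day 11 replicate 3 or NT day 11 replicate 3 or without the low-agreement libraries at 0.34 to 0.45. Without the low-agreement libraries 2 calls were left, those of Peg3 and Ddc, as many as without NT day 7 replicate 2. There were 3 without NT day 7 replicate 1 or 3, Eed day 7 replicate 2 or 3 or NT day 11 replicate 3. In Ezh2 1 gene had a lower effect (Peg3, with 1.41% of all genes called; 2 calls without Ezh2 day 7 replicate 1 and 0 without Ezh2 day 7 replicate 3, NT day 7 replicate 3 or Ezh2 day 11 replicate 2), and in Brd8 1 higher and 1 lower (Plagl1 and Peg3, with 4.55% called). The Brd8 count was 4 without NT day 11 replicate 2 and 1 without Brd8 day 7 replicate 3, NT day 7 replicate 2, Brd8 day 11 replicate 1 or 3 or NT day 11 replicate 3. In Nr6a1 edgeR called 0 (0.112% of all genes), with 8 at an unadjusted p under 0.05 and 1 by DESeq2, and 1 without NT day 11 replicate 2.

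Genes around the imprinted ones moved as follows at day 11. In the 12 genes of the IGF signalling axis other than Igf2, Igf2r and Grb10, 6 rose and 1 fell in Eed (58.3%, with 24% of all genes called) and 7 rose and 1 fell in Brd8 (66.7%, with 17.8%). The summed level of the list was nevertheless lower, 3364 to 3469 CPM in Eed and 3521 to 3581 in Brd8 against 4338 to 4879 in NT. The RNA-binding protein genes Igf2bp1 and Igf2bp3 rose in Eed by 0.70 ± 0.0945 (adjusted p = 4.9e-07) and 0.51 ± 0.0815 (adjusted p = 1.1e-05), and the IGF-binding protein gene Igfbp5 fell (-1.09 ± 0.159, adjusted p = 2.09e-06). In Brd8 the same 3 genes had 0.52, 0.44 and -0.87, all with an adjusted p of 0.000133 or less. Of the 14 imprint maintenance and DNA methylation genes tested, 4 rose and 1 fell in Eed (35.7%), and 2 rose and 1 fell in Brd8 (21.4%, near the 17.8% of all genes). Uhrf1 rose by 1.33 ± 0.128 (adjusted p = 8.43e-10) in Eed and 1.22 ± 0.128 (adjusted p = 7.52e-09) in Brd8, Dnmt1 by 0.41 and 0.41, and the demethylase gene Tet1 fell by 0.42 and 0.35.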

How the data were processed

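Total RNA was purified on columns, depleted of ribosomal RNA and made into directional libraries, per the labels' protocols, although the labels give the molecule as genomic DNA. The authors deposited 1 table of estimated counts per gene and library. Of their tools, mm10 and DESeq2 are named, per the submitters' processing notes, and the aligner, counter, annotation and use of strand were not given in the sources used here. Values with a fraction, 2.95% of all, were rounded to whole counts. The groups came from the labels. Genes passing edgeR's filterByExpr (15204 of 24410) were fitted in 1 quasi-likelihood model over all 41 libraries with a mean per group and TMM factors (R 4.3.3, edgeR 4.0.16, limma 3.58.1), after a test on simulated data. Comparisons were NT at day 11 against day 7, each knockout against NT at each day, Eed against Ezh2 at day 11, and the change in effect of a knockout between days 7 and 11, with a threshold of 0.05 on adjusted p. The common biological coefficient of variation was 0.182. The alternatives were DESeq2 (1.42.0), its size factors, no low-count filter, only the groups compared, a replicate block, library totals without Rn45s, no low-agreement libraries (highest correlation with their group under 0.95) and each library left out in turn. Replicate numbers were not taken to pair libraries: deviations of same-numbered libraries correlated at -0.0278 to 0.104.

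Positions are GENCODE M21 on GRCm38, promoters RefSeq GRCm38.p6. The imprinted genes and the other lists were chosen with earlier results of these data known, and parental alleles are from the literature. Values in every library are given for genes with a 2-fold call in any comparison, and at most 3 genes of smallest adjusted p are named per other list.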

Additional observations from a re-analysis of the deposited data

Results flagged for a closer look

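A knockout's effect on an imprinted gene, its log2 fold change against NT, differed between days 7 and 11 in 8 cases by edgeR's test of the difference itself. Peg3 was lower at day 11 relative to day 7 in 3 knockouts, in Eed (log2 difference -0.76 ± 0.129, adjusted p = 0.000155), in Ezh2 (-0.57 ± 0.129, adjusted p = 0.016) and in Brd8 (-0.64 ± 0.129, adjusted p = 0.00193). At day 7 the Peg3 effects were 0.08, 0.03 and -0.01, and at day 11 -0.68, -0.54 and -0.65, in the order Eed, Ezh2, Brd8. These differences share the 6 NT libraries of both days. Plagl1 was higher at day 11 relative to day 7 in Eed (0.89 ± 0.238, adjusted p = 0.0162) and in Brd8 (0.87 ± 0.238, adjusted p = 0.0261), with effects of 0.39 and 0.22 at day 7. In Eed, Ddc (1.20 ± 0.299, adjusted p = 0.00972) and Mest (0.44 ± 0.131, adjusted p = 0.033) had higher effects at day 11 and Ppp1r9a a lower one (-0.43 ± 0.135, adjusted p = 0.0442). Ddc's effect was -0.55 at day 7 and 0.64 at day 11, so it changed sign, although only the later value passed on its own.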

How the results depend on the processing

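Of 109 calls of an imprinted gene in a comparison, 51 were kept under every alternative, 58 were lost under at least 1, and 0 changed direction. With no low-count filter the imprinted genes called numbered 13 (Eed day 7), 14 (Eed day 9), 4 (Ezh2 day 7), 10 (Ezh2 day 11), 6 (Brd8 day 7), 9, 3 and 3 (Nr6a1 days 7, 9 and 11) and 10 (Eed against Ezh2). Under that setting the differences between days gave 9 in Eed, 3 in Ezh2, 5 in Brd8 and 5 in Nr6a1. With only the groups compared, the counts were 5 (Eed day 9), 4 and 5 (Ezh2 days 7 and 11), 6 (Brd8 day 7), 4 and 3 (Nr6a1 days 7 and 9), 3 (Eed difference between days) and 1 (Nr6a1 difference). For Ezh2 at day 11, 5 were called with DESeq2 size factors and 5 without Rn45s. DESeq2 called 1 and 2 in Nr6a1 at days 7 and 9 and 1 in its difference between days. Without the low-agreement libraries 12 were called in Eed at day 11 and 2 in its difference between days. With the replicate number as a block, 5 were called in Ezh2 at day 11 and 2 in its difference between days, and the other counts stayed within 1.5 times the values reported. The causes were not tested. The counts in this section stand without the share of all genes called under the same setting. They describe how the calls depend on processing and not how imprinted genes compare with other genes. Leaving out each library in turn gave 25 to 29 calls in NT over time, 3 to 8, 0 to 10 and 14 to 17 in Eed at days 7, 9 and 11, 2 to 5 in Ezh2 at day 11, and 0 to 5, 7 to 15 and 9 to 14 in Brd8. It gave 0 to 1 in Nr6a1 at day 9, 0 to 5 between Eed and Ezh2, and for the differences between days 2 to 6 in Eed, 0 to 2 in Ezh2, 1 to 4 in Brd8 and 0 to 1 in Nr6a1. In Ezh2 at days 7 and 9 and Nr6a1 at days 7 and 11 it gave 0 each time. Depth limits Phlda2, which was too low to test, and groups of 2 libraries leave a lone library when 1 is left out, assumed to vary like the other groups.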
